A study of Mus musculus with 6 samples.

Results

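The mouse MHC class I molecules were followed at the level of mRNA through 10 genes chosen by name, which are the classical heavy chains H2-K1 and H2-D1, the shared light chain B2m, and the nonclassical heavy chains H2-Q4, H2-Q6, H2-Q7, H2-T22, H2-T23, H2-T24 and H2-M3. All 10 were among the 55453 genes listed in the count table, and all 10 passed the filter on low counts that left 13680 genes for testing. The samples were 6 libraries of bone marrow-derived macrophages (BMDM), all of C57BL/6 strain by their labels, 3 PP2Ac KO and 3 PP2Ac WT. PP2Ac KO macrophages came from LysMcre PP2Ac fl/fl mice, in which exon 1 of Ppp2ca, the gene of the catalytic subunit of protein phosphatase 2A, is floxed and cre is driven by the Lysozyme 2 promoter, so that deletion is directed to myeloid cells. PP2Ac WT macrophages came from C57BL/6 mice of a commercial colony, for which no cre or floxed allele is stated, so that a difference of colony and a difference of genotype cannot be told apart. The study describes its RNA-Seq as made on BMDM of both genotypes treated with cGAMP, an agonist of the DNA-sensing adaptor STING, whereas the labels give no treatment, age or sex. Poly(A) RNA was made into directional libraries and read from both ends in 150 bases. The study describes its cell-based experiments as done in biological triplicate but does not say whether the replicates were separate mice, and p-values measure the spread between these samples.

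MHC class I molecules are carried on almost all nucleated cells and show peptides from inside the cell to CD8+ T cells and NK cells. A heavy chain and B2m form each molecule, in most cases with a peptide. The peptide is cut by the proteasome and pumped into the endoplasmic reticulum by the transporter TAP. Tapasin and other chaperones fit it to the heavy chain. The heavy-chain genes and B2m share promoter elements that are read by NF-kappaB, by interferon regulatory factors and by the complex that NLRC5 joins. Interferons are known to raise many parts of the pathway together.

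Between 35257156 and 46647682 reads per PP2Ac KO library and between 38235133 and 47390899 per PP2Ac WT library were counted on genes. The targeted gene, Ppp2ca, had 10654, 8913 and 8279 counts in PP2Ac WT and 47, 33 and 38 in PP2Ac KO. Among 8 macrophage markers, including Csf1r, Adgre1 and Cd68, the summed level ran from 10632 to 10705 CPM (reads of a gene divided by those of the whole library, scaled to a common size) in PP2Ac KO and from 8460 to 9162 CPM in PP2Ac WT. Of these markers, 4 rose at an adjusted p under 0.05 from edgeR (Mertk, Fcgr1, C1qa and C1qb), as did 18.1% of all genes tested. The other 4, among them Csf1r, Adgre1 and Cd68, did not pass the test. Of 6 T and NK cell markers, 5 had at most 3 counts in every library, with Cd8a at 0 throughout. No B cell marker had more than 25 counts, no neutrophil marker more than 37 (Ly6g was at 0), and no dendritic cell marker more than 36 in any library. All 4 fibroblast markers were called lower in PP2Ac KO, as were 19.0% of all genes tested. Their summed level was 22.7 to 33.4 CPM in PP2Ac KO, against 74.9 to 118 CPM in PP2Ac WT. The part of these differences in the class I results was not tested, and in such bulk samples fewer cells of a type and less RNA per cell cannot be told apart.

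The genes lie on chromosome 17, apart from B2m, which spans chr2:122147686-122153083 on the forward strand (build GRCm38, GENCODE M21). H2-K1 (chr17:33996017-34000347, reverse strand) stands at one end of the MHC. H2-D1 (chr17:35262730-35267499), H2-Q4 (chr17:35379617-35385290), H2-Q6 (chr17:35424850-35430055) and H2-Q7 (chr17:35439155-35443773) follow on the forward strand. H2-T24 (chr17:36005695-36020560), H2-T23 (chr17:36029773-36032855) and H2-T22 (chr17:36037128-36042747) stand side by side on the reverse strand, and H2-M3 (chr17:37270220-37274484) closes the series on the forward strand.

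The promoters are shown because they carry what the classical and H2-Q genes share in sequence. In the 250 bases before the RefSeq start sites (GRCm38.p6), which could be read for 9 of the 10 members, 5 letter patterns were searched on both strands. They were chosen after these promoters had been seen, so their presence here is a description. For H2-D1 and H2-T23 the RefSeq start sites used (35263094 and 36032701) lie inside the GENCODE spans given above. The elements found for these genes stand within those spans. Of the 2 windows of H2-K1, the one furthest downstream was used. A kappaB element spelled GGGATTNCC stood in 5 members, namely H2-K1, H2-D1, H2-Q4, H2-Q6 and H2-Q7, against 0.822% of 32851 promoter windows of the same length. The interferon-stimulated response element (ISRE) in the form GTTTCACTT followed it downstream, with 19 bases from the start of one to the start of the other in H2-K1, H2-D1, H2-Q4 and H2-Q6 and 18 in H2-Q7. These stretches, with both elements in capitals, read in the direction of transcription:
H2-K1, chr17:34000430-34000457, reverse strand: GGGATTCCCcatctccacaGTTTCACTT
H2-D1, chr17:35262924-35262951, forward strand: GGGATTCCCcatctcctcaGTTTCACTT
H2-Q4, chr17:35379444-35379471, forward strand: GGGATTTCCcatctccccaGTTTCACTT
H2-Q6, chr17:35424678-35424705, forward strand: GGGATTCCCcatctccccaGTTTCACTT
H2-Q7, chr17:35439023-35439049, forward strand: GGGATTCCCatctccccaGTTTCACTT

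The GTTTCACTT form occurred also in H2-T22 and H2-M3, 7 members in all, against 0.338% of all windows. The more general ISRE pattern GAAANNGAA was found in B2m, H2-T22 and H2-T23, 3 members against 7.13% of windows, and in H2-T22 it overlapped GTTTCACTT. All 9 windows held the letters TGNTGAC of the X2/CRE box, part of the module that RFX, CREB and NLRC5 occupy, against 11.7% of all windows. In H2-T23 these letters stood only on the opposite strand, at -19, and whether they form such a box there was not tested. The letters of a CCAAT box, bound by NF-Y, were also present in all 9, against 33.8% of all windows. The H2 promoters are copies of one another by descent, and their matches are not independent of each other. A longer stretch is given for the member with the largest change and for 2 members that lack the kappaB spelling, with every searched element in capitals on whichever strand it was found:
H2-Q6, chr17:35424668-35424809, forward strand: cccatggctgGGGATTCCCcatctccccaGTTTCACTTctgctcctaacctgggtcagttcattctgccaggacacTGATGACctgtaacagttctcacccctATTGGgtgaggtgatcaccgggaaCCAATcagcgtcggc
H2-T22, chr17:36042791-36042953, reverse strand: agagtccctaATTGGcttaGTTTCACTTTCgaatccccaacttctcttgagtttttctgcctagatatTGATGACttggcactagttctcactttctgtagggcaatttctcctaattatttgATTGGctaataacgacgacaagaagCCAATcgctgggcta
B2m, chr2:122147538-122147648, forward strand: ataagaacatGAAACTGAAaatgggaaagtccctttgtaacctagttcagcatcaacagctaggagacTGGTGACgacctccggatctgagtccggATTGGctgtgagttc

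**Figure D1:**
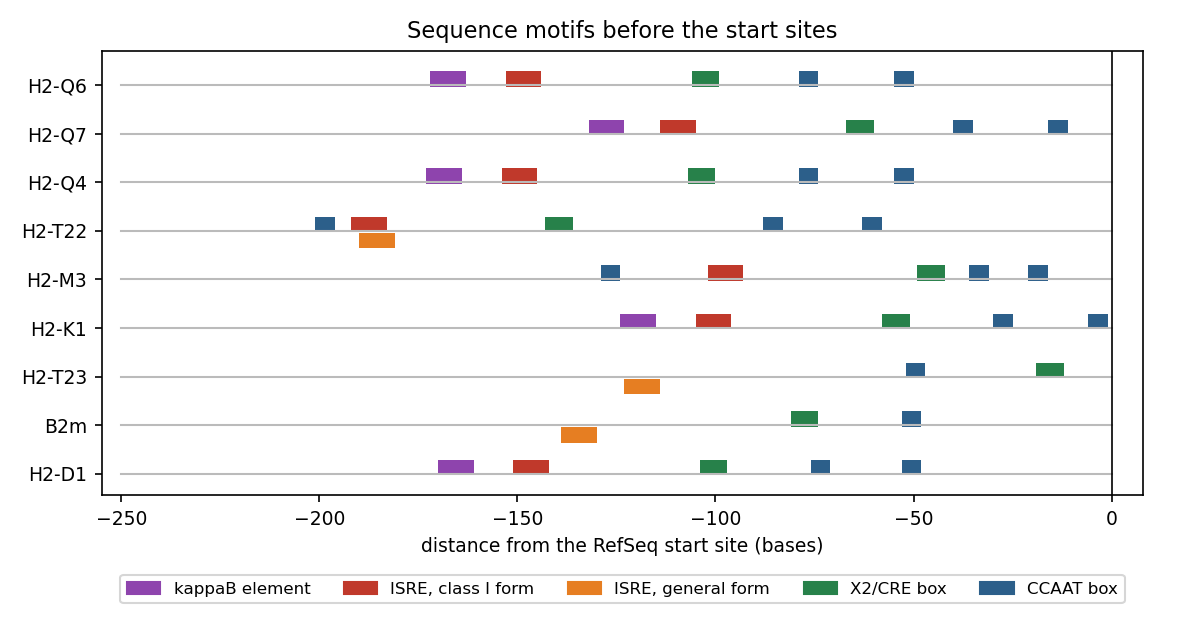
Positions of the 5 searched patterns in the 250 bases before the RefSeq start site of 9 class I genes, in bases from the start site, with genes ordered by their log2 fold change from H2-Q6 at the top to H2-D1 at the bottom. The kappaB element and the class I form of the ISRE stand together in H2-Q6, H2-Q7, H2-Q4, H2-K1 and H2-D1. The X2/CRE and CCAAT patterns are present in all 9, the former only on the opposite strand in H2-T23.

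The class I genes were higher in PP2Ac KO than in PP2Ac WT macrophages. All 10 members rose at an adjusted p under 0.05 (edgeR's quasi-likelihood test, Benjamini-Hochberg over 13680 genes), where 18.1% of all genes tested were called higher and 19.0% lower. Their median log2 fold change was 0.98 and their range 0.52 to 3.04, against a median of -0.02 over all genes tested. In all 10 the lowest PP2Ac KO library stood above the highest PP2Ac WT library, as was the case for 24% of all genes tested (3290 of 13680). At the stricter thresholds of the study, a log2 fold change over 1 with an adjusted p under 0.01, 5 members were upregulated (H2-Q4, H2-Q6, H2-Q7, H2-T22 and H2-M3), with 3.36% of all genes tested. With the replicate number added to the fit as a block, all 10 again rose, where 24.4% of all genes were called higher and 26.4% lower. H2-M3, at 1.01, lay just above the limit of 1 and H2-K1, at 0.94, just below it. With PP2Ac KO replicate 1 or 2 or PP2Ac WT replicate 3 left out, the count of members was 4, and with PP2Ac KO replicate 3 or PP2Ac WT replicate 1 or 2 left out it was 6. Over all genes, 460 passed these thresholds in the fit as reported. The fits with 4 members past them had 335 to 417 such genes, and those with 6 had 365 to 592.

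The members together took 1.17%, 1.27% and 1.12% of all counted reads in PP2Ac KO libraries 1 to 3, against 0.854%, 0.896% and 0.726% in their PP2Ac WT counterparts. Scaled by the TMM method, their summed levels were 12817, 13540.5 and 11900.0 CPM in PP2Ac KO against 8149, 8239 and 6621 CPM in PP2Ac WT. The genotypes thus stood apart in the sum as they did gene by gene. The third replicate was the lowest of its genotype for 10 of 10 members in both genotypes, whereas over all genes tested it was lowest for 32.6% in PP2Ac KO and 37.2% in PP2Ac WT.

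**Figure D2:**
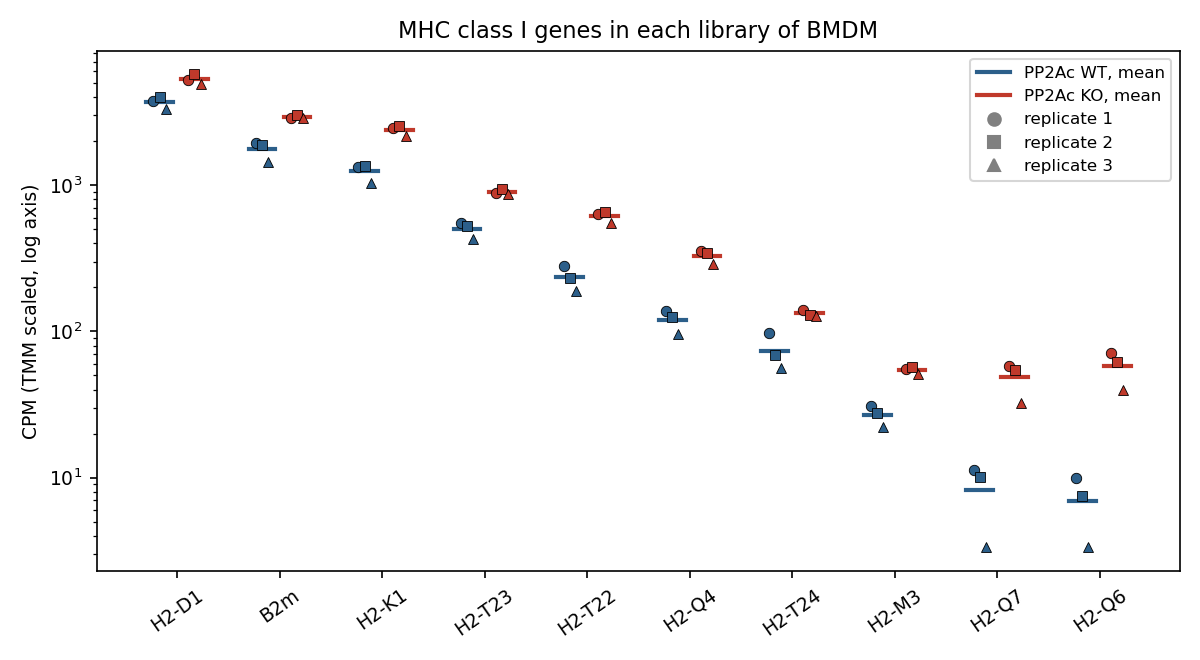
CPM (TMM scaled, log axis) of the 10 class I genes in each of the 6 libraries, with replicates as symbols and the mean of each genotype as a bar. Every PP2Ac KO library lies above every PP2Ac WT library of the same gene, and the third replicate is the lowest of its genotype throughout.

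H2-K1 and H2-D1 encode the K and D molecules, the classical class I heavy chains that present peptide to CD8+ T cells in this strain. H2-K1 was measured at 2448, 2527 and 2156 CPM in PP2Ac KO against 1328, 1352 and 1043 CPM in PP2Ac WT. The means were 2377 ± 196 and 1241 ± 172 CPM (SD, n = 3), a 1.92-fold difference (log2 fold change 0.94, standard error 0.11, adjusted p = 0.000309 from edgeR). H2-D1, the heavy chain with the most reads, was measured at 5268.5, 5724 and 4908 CPM in PP2Ac KO against 3742, 4009 and 3334 CPM in PP2Ac WT. Its means were 5300.0 ± 409 and 3695 ± 339.5 CPM (SD, n = 3), a 1.43-fold difference with the smallest log2 fold change of the 10 (0.52, standard error 0.09, adjusted p = 0.00235 from edgeR). Both classical genes thus rose, without overlap of the libraries in either.

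B2m, the light chain that class I heavy chains bind on their way to the surface, was measured at 2902, 3039 and 2874 CPM in PP2Ac KO against 1955, 1881 and 1445 CPM in PP2Ac WT. The PP2Ac KO libraries lay close together, with a coefficient of variation of 3.0%, and the PP2Ac WT libraries were spread by 15.6%, with the third as the lowest. Means of 2939 ± 88.0 and 1760.2 ± 275 CPM (SD, n = 3) gave a 1.67-fold difference (log2 fold change 0.74, standard error 0.11, adjusted p = 0.000932 from edgeR).

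H2-Q4, H2-Q6 and H2-Q7 belong to the Qa-2 region. H2-Q7 encodes the Qa-2 antigen, a class I molecule that is mostly held in the membrane by a lipid anchor, and H2-Q6 is a close copy of it. H2-Q6 had 70.9, 62.0 and 39.8 CPM in PP2Ac KO against 9.94, 7.50 and 3.36 CPM in PP2Ac WT. This was the largest change among the members, 8.22-fold between means of 57.5 ± 16 and 6.93 ± 3.33 CPM (SD, n = 3), and the 8th largest log2 fold change of all genes tested (3.04, standard error 0.33, adjusted p = 0.000201 from edgeR). H2-Q7 had 58.4, 54.7 and 32.4 CPM in PP2Ac KO against 11.3, 10 and 3.3 CPM in PP2Ac WT. It rose 5.85-fold, from 8.23 ± 4.28 to 48.5 ± 14.1 CPM (SD, n = 3), the 20th largest log2 fold change (2.55, standard error 0.37, adjusted p = 0.000762 from edgeR). These were also the most variable members, with coefficients of variation of 27.8% and 29.0% in PP2Ac KO and 48.0% and 52.0% in PP2Ac WT. Their counts still ran from 1352 to 3006 per PP2Ac KO library and from 140.0 to 562 per PP2Ac WT library, far over the floor of 3 counts. Without PP2Ac WT replicate 3, the log2 fold changes were 2.72 for H2-Q6 and 2.18 for H2-Q7.

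H2-Q4, which encodes the nonclassical molecule Qb-1, had 355, 343 and 289.5 CPM in PP2Ac KO against 138, 126 and 96.6 CPM in PP2Ac WT. The lowest PP2Ac KO library lay above the highest PP2Ac WT library. The 2.74-fold difference between 329 ± 34.9 and 120.2 ± 21.5 CPM (SD, n = 3) was 1.45 on the log2 scale (standard error 0.13, adjusted p = 0.000101 from edgeR).

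H2-T23 encodes Qa-1, which presents leader peptides of other class I chains to the CD94-NKG2A receptor of NK cells and T cells. It was measured at 883, 948 and 867 CPM in PP2Ac KO against 555, 525 and 428 CPM in PP2Ac WT. The gene was 1.79-fold higher (899 ± 43.2 against 502 ± 66.5 CPM, SD, n = 3), or 0.84 on the log2 scale (standard error 0.10, adjusted p = 0.000309 from edgeR). H2-T22, whose product is a ligand of some gamma-delta T cell receptors and carries no peptide, had 635, 657 and 555 CPM in PP2Ac KO against 282, 233 and 189 CPM in PP2Ac WT. Its difference of 2.62-fold (616 ± 53.7 against 235 ± 46.1 CPM, SD, n = 3) was larger than that of its neighbours H2-T23 and H2-T24 as estimated (log2 fold change 1.39, standard error 0.14, adjusted p = 0.000133 from edgeR), and the differences between these genes were not tested.

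H2-T24, a nonclassical gene of the same cluster, had 141, 129 and 128 CPM in PP2Ac KO against 97.2, 68.8 and 56.0 CPM in PP2Ac WT. The first PP2Ac WT library was the highest of its group, and the pair of libraries numbered 1 differed by 0.54 on the log2 scale, against 0.90 and 1.19 in the other pairs. The estimate was 0.84 (standard error 0.17, adjusted p = 0.00383 from edgeR), the weakest evidence among the 10, with means of 133 ± 7.37 and 74.0 ± 21.1 CPM (SD, n = 3). H2-M3, which presents peptides that begin with N-formylmethionine, as bacterial and mitochondrial proteins do, had 55.0, 57.0 and 50.9 CPM in PP2Ac KO against 30.8, 27.5 and 22.2 CPM in PP2Ac WT. It rose 2.02-fold, from 26.8 ± 4.34 to 54.3 ± 3.12 CPM (SD, n = 3; log2 fold change 1.01, standard error 0.11, adjusted p = 0.000195 from edgeR).

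**Figure D3:**
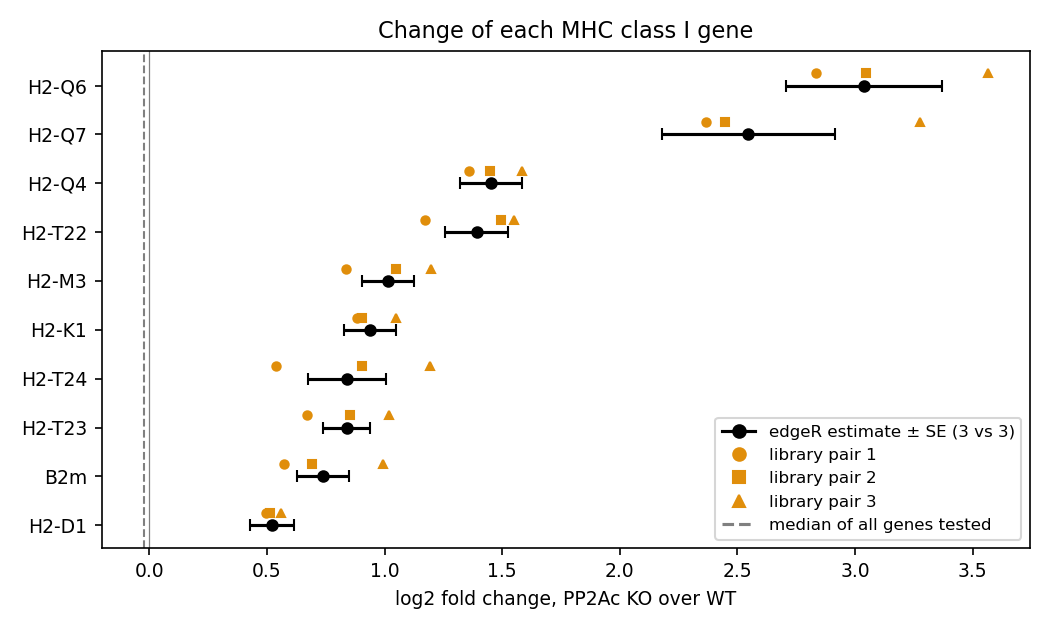
Log2 fold change of each class I gene, PP2Ac KO over PP2Ac WT, as edgeR's estimate with a standard error derived from the F statistic (black). Orange symbols give the difference within each pair of libraries with the same replicate number. All pairs of all genes lie to the right of the dashed line at -0.02, the median of all genes tested, with H2-Q6 at 3.04 and H2-D1 at 0.52 as the extremes.

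Members with and without the kappaB spelling overlapped in their changes. The 5 members that carry it had log2 fold changes of 3.04, 2.55, 1.45, 0.94 and 0.52, and the 4 with a promoter window without it, H2-T22, H2-M3, H2-T23 and B2m, had 1.39, 1.01, 0.84 and 0.74, within the range of the former. No test was made of this difference. Only this spelling of the element was searched, and other forms of it were not looked for in any member.

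Per length of gene, the order of the levels was the same in both genotypes. On a scale of CPM per kb of exon, B2m was highest, at 3417 ± 102 in PP2Ac KO and 2047 ± 320 in PP2Ac WT (SD, n = 3), followed by H2-D1 at 2055 ± 159 and 1433 ± 132, and by H2-K1 at 809 ± 66.6 and 422 ± 58.5. H2-T23 stood next, at 311 ± 14.9 and 174 ± 23 CPM per kb, above H2-T22 at 180.4 ± 15.7 and 68.8 ± 13.5. H2-Q4 had 127 ± 13.4 and 46.3 ± 8.27 CPM per kb, and H2-T24 had 60.8 ± 3.38 and 33.9 ± 9.66. At the low end were H2-M3 with 37.8 ± 2.17 and 18.7 ± 3.01, H2-Q6 with 27.6 ± 7.68 and 3.33 ± 1.60, and H2-Q7 with 11.4 ± 3.30 and 1.93 ± 1.0 CPM per kb. The classical heavy chains and their light chain were thus more abundant per length than the nonclassical chains in either genotype. Neighbours in this order had libraries that overlapped in PP2Ac WT for H2-Q4 with H2-T24 and for H2-Q6 with H2-Q7, and in no case in PP2Ac KO. When the length of the longest coding transcript was used, H2-Q7 (31.8 in PP2Ac KO, 5.40 in PP2Ac WT) passed H2-Q6 (27.6 and 3.33), so that the order of these 2 genes depends on the length chosen. With that length, H2-K1 stood at 1468 and 766, H2-T23 at 611 and 341 and H2-T22 at 349.6 and 133 CPM per kb in PP2Ac KO and PP2Ac WT, and with the longest transcript of any kind H2-K1 stood at 1268 and 662, at the same places in the order.

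Because each heavy chain pairs with B2m, the ratio of heavy-chain to B2m reads was computed within each library, which removes the scaling of libraries. The log2 ratio of H2-D1 to B2m was 0.86, 0.91 and 0.77 in PP2Ac KO and 0.94, 1.09 and 1.21 in PP2Ac WT, so that it was lower in every PP2Ac KO library, by 0.23 on average. In H2-K1 it was -0.25, -0.27 and -0.42 in PP2Ac KO and -0.56, -0.48 and -0.47 in PP2Ac WT, higher by 0.19 in PP2Ac KO. These differences reached p = 0.1 in a two-sided exact permutation test, which is the smallest p that 3 libraries against 3 can give, so that none of them can pass 0.05. The ratio was higher in every PP2Ac KO library also for H2-Q6 (by 2.40), H2-Q7 (1.95), H2-Q4 (0.71), H2-T22 (0.65), H2-M3 (0.28) and H2-T23 (0.10), each with an exact p of 0.1 before any adjustment over the 9 ratios. Only the H2-T24 ratio overlapped between genotypes, with a difference of 0.13 and an exact p of 0.5.

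The makeup of the heavy-chain reads differed accordingly. H2-D1 supplied 53.1%, 54.5% and 54.4% of the reads on the 9 heavy chains in PP2Ac KO and 60.4%, 63.0% and 64.4% in PP2Ac WT. H2-K1 supplied 24.2% ± 0.424 and 21% ± 0.698 (SD, n = 3), H2-T22 supplied 6.27% ± 0.126 and 3.96% ± 0.509, and H2-Q4 supplied 3.35% ± 0.201 and 2.03% ± 0.190, with no overlap of libraries. H2-Q6 and H2-Q7 remained minor, at 0.582% and 0.490% of heavy-chain reads in PP2Ac KO and 0.114% and 0.135% in PP2Ac WT. The shares of H2-T23 (9.18% and 8.49%) and H2-T24 (1.36% and 1.24%) overlapped between genotypes. Shares must sum to the whole, and a lower share of H2-D1 stands beside a higher H2-D1 level.

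**Figure D4:**
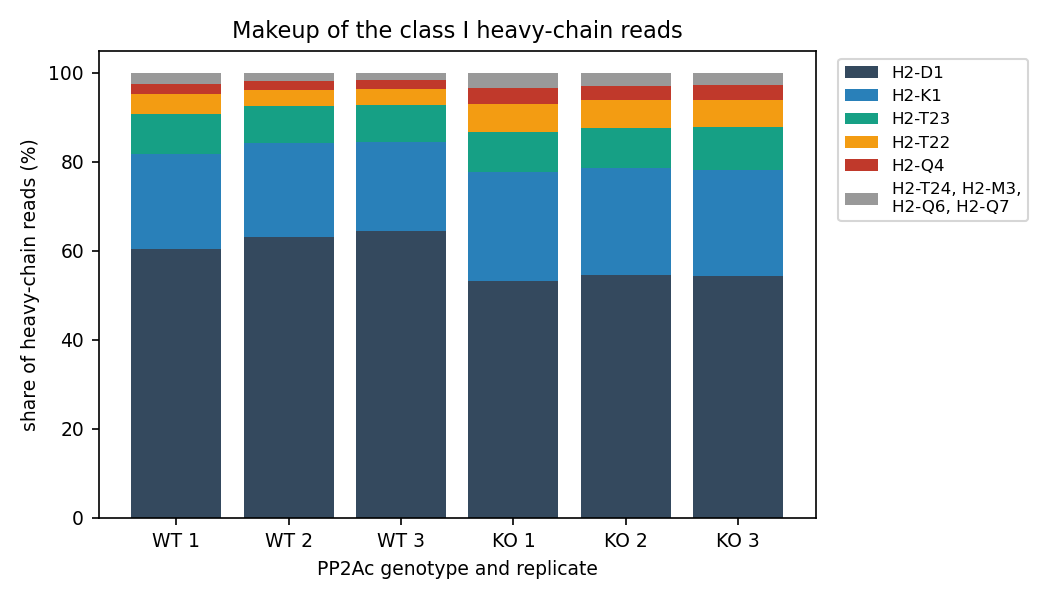
Share of the reads on 9 class I heavy chains taken by each gene, in percent, in each PP2Ac WT and PP2Ac KO library. H2-D1 takes 60.4% to 64.4% in PP2Ac WT and 53.1% to 54.5% in PP2Ac KO, and H2-K1, H2-T22 and H2-Q4 take more in PP2Ac KO.

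Near-identical copies limit how exactly single H2 genes can be told apart. Of all stretches of 50 bases in the transcripts of a member, 34.5% in H2-T22 (31.2% with H2-T10), 32% in H2-Q6, 26.4% in H2-Q7, 21.8% in H2-Q4, 13.6% in H2-T23, 12.8% in H2-D1 and 9.63% in H2-K1 occurred also in transcripts of other genes. B2m had none. Of stretches of 150 bases, the length of a read, 5.99% in H2-Q6 and 5.90% in H2-Q7 were shared, and at most 1.35% in the other members. H2-Q8 and H2-Q9 had no row in the count table and did not appear among the genes found to share stretches with H2-Q6 or H2-Q7. Whether the annotation searched holds H2-Q8 and H2-Q9 was not checked, so their absence cannot show how alike the copies are. Whether reads from H2-Q8 or H2-Q9 fell on H2-Q6 or H2-Q7 was not tested. When reads of H2-Q6 and H2-Q7 were summed, the log2 fold change was 2.80, and sums over H2-K1, H2-D1 and the H2-Q genes and over H2-T22, H2-T24 and other H2-T genes gave 0.68 and 1.27. Genes on the opposite strand overlap B2m (Patl2), H2-Q4 (Gm11131) and H2-T22, H2-T23 and H2-T24 (A930015D03Rik). Whether strand was used in counting is not given in the sources used here, and reads from such pairs might not have been told apart.

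Most genes that supply class I molecules with peptide rose. Of 13 genes of peptide generation and loading, 10 rose and 3 did not pass the test (edgeR, adjusted p under 0.05), where 18.1% of all genes tested were called higher, and the median change was 0.89 on the log2 scale. Of the subunits that turn the proteasome into the immunoproteasome, Psmb10 rose by 1.29, Psmb8 by 0.99 and Psmb9 by 0.98 on the log2 scale. The peptide transporter genes Tap1 and Tap2 rose by 1.09 and 0.99. Tap1 had 794, 740.3 and 683 CPM in PP2Ac KO against 405, 338 and 299 CPM in PP2Ac WT (standard error 0.11, adjusted p = 0.000165 from edgeR). Tapbpl, the tapasin-related peptide editor, rose by 1.13. The general chaperones of the endoplasmic reticulum, Calr, Canx and Pdia3, had log2 fold changes of 0.00, 0.05 and 0.12 with adjusted p of 0.979, 0.619 and 0.173 from edgeR.

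Of 16 transcription factors that act on class I promoters, 10 rose and 6 did not pass the test, against 18.1% of all genes called higher, and the median change was 0.42. Nlrc5, the transactivator of class I genes, had 422, 331 and 328 CPM in PP2Ac KO against 178, 117 and 122 CPM in PP2Ac WT. The estimate of 1.37 on the log2 scale (standard error 0.17, adjusted p = 0.00033 from edgeR) was the largest of the list. Rfx5, the subunit of the RFX complex at the X box, rose by 0.93, while its partners Rfxap and Rfxank had -0.15 and -0.17 (adjusted p = 0.305 and 0.233 from edgeR). Of factors that act at the ISRE, Irf2 rose by 0.67, Stat2 by 0.65 and Irf1 by 0.64, and the NF-kappaB subunit gene Nfkb1 rose by 0.75. Irf1 stood at 591, 549 and 572 CPM in PP2Ac KO against 397, 354 and 347 CPM in PP2Ac WT (standard error 0.07, adjusted p = 0.00028 from edgeR). The NF-Y genes that serve the CCAAT box had log2 fold changes of 0.15 (Nfya), 0.16 (Nfyb) and 0.01 (Nfyc), with adjusted p of 0.0766, 0.154 and 0.917 from edgeR. With the replicate number as a block, 11 factors rose and 1 fell (24.4% and 26.4% of all genes), with Nfya added above and Creb1 below (adjusted p = 0.011 and 0.00757 from edgeR).

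Of 29 other class I and class I-like genes on the list, 26 stood in the table and 14 could be tested, and 3 of these rose, a share near the 18.1% called higher among all genes tested (5 with the replicate block, against 24.4%), and the median change was -0.01. The 3 were H2 genes close to the members, H2-Q5 with 2.25, H2-T10 with 1.31 and H2-K2 with 0.65 on the log2 scale. H2-Q5 shares stretches of sequence with H2-Q7, and H2-T10 with H2-T22. H2-T10, which like H2-T22 is a ligand of gamma-delta T cells, had 40.5, 41.8 and 36.5 CPM in PP2Ac KO against 16.3, 17.9 and 13.7 CPM in PP2Ac WT, without overlap. With the block, Fcgrt and Mill2, class I-like genes outside the MHC, were called as well (adjusted p = 0.0157 and 0.00322 from edgeR). Among the class I-like genes that passed in neither fit were Cd1d1, which presents lipids (0.04, adjusted p = 0.86 from edgeR), Mr1, which presents vitamin B metabolites (0.12, adjusted p = 0.296 from edgeR), and Hfe, a regulator of iron uptake (-0.05, adjusted p = 0.597 from edgeR).

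In MHC class II, which presents peptides from outside the cell to CD4+ T cells, 2 of 10 genes rose, 1 fell and 7 did not pass the test, shares that were close to or below the 18.1% and 19.0% of all genes called higher and lower, and the median change was 0.12. Of the chains that form the class II molecule, H2-Ab1 had a log2 fold change of 0.07 (adjusted p = 0.788 from edgeR), and the invariant chain Cd74 stood at 1183 ± 268 CPM in PP2Ac KO against 1184 ± 312 CPM in PP2Ac WT (SD, n = 3, adjusted p = 0.999 from edgeR). The genes that rose were of low level, H2-Oa by 1.55 (adjusted p = 0.00085 from edgeR) and H2-DMb2 by 0.74 (adjusted p = 0.0498 from edgeR). The libraries of the genotypes overlapped in H2-DMb2 and not in H2-Oa. Ciita, the class II counterpart of Nlrc5, had 16.1, 12.2 and 11.8 CPM in PP2Ac KO against 31.7, 28.2 and 25.4 CPM in PP2Ac WT, and fell by 1.09 on the log2 scale (standard error 0.13, adjusted p = 0.000287 from edgeR). Nlrc5 and Ciita thus moved in opposite directions, each without overlap of libraries. The count of class II genes that rose was 1 without PP2Ac KO replicate 1 or 2 or PP2Ac WT replicate 2 or 3. It was 3 without PP2Ac KO replicate 3. Over all genes, the count called higher was 2470 in the fit as reported. It was 1974 to 2141 in the fits with 1 such class II gene and 2227 in the fit with 3. With the replicate block, 4 class II genes rose and 1 fell, against 24.4% and 26.4% of all genes. The difference between the class I and class II lists was not tested.

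**Figure D5:**
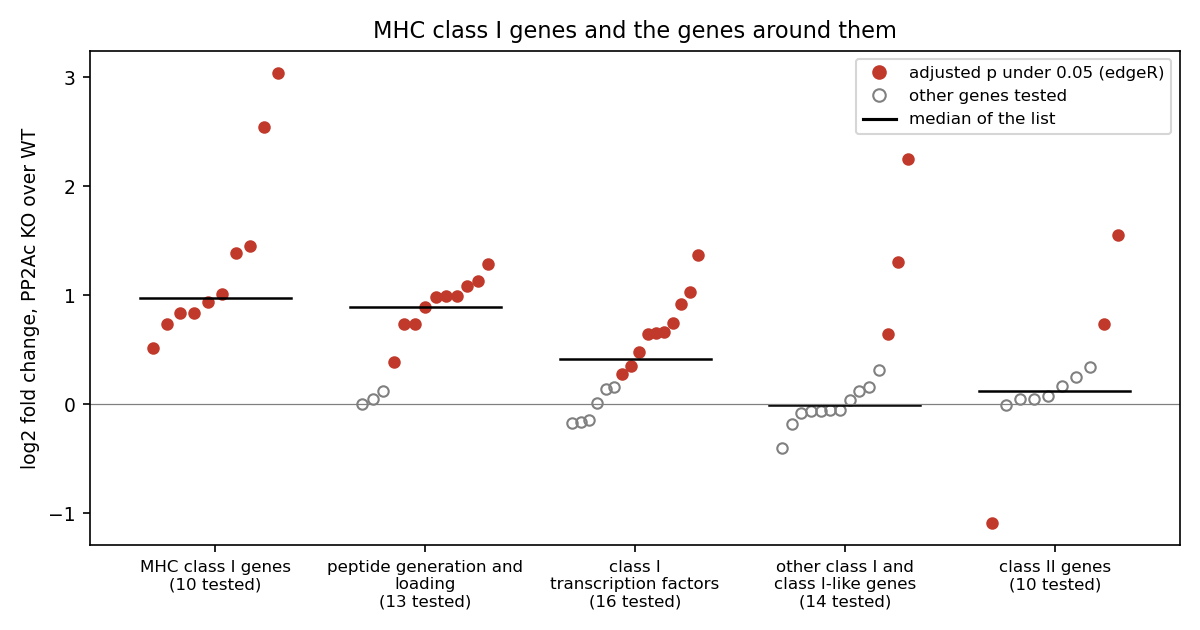
Log2 fold change, PP2Ac KO over PP2Ac WT, of the genes tested in 5 lists, with filled points for an adjusted p under 0.05 from edgeR and a line at each list's median. The medians are 0.98 for the 10 class I genes, 0.89 for peptide generation and loading, 0.42 for transcription factors, -0.01 for other class I and class I-like genes and 0.12 for class II.

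Over the 6 libraries, the profiles nearest to that of H2-K1 by Euclidean distance of centred log2 CPM were those of Rrad (distance 0.130), Sertad3 (0.141), Fgd2 (0.143), Dusp5 (0.150) and Limd2 (0.163), whose log2 fold changes ran from 0.91 to 1.03. Nearest to B2m were Gpr65 (0.0956), Ms4a4a (0.108), Rnase4 (0.121), Tnfrsf12a (0.122) and Psme1 (0.137), with log2 fold changes from 0.67 to 0.76. Of these 10 genes, 1 is on the lists described here, Psme1, a subunit of the PA28 activator of the proteasome. All these profiles were taken over the same 6 libraries and carry the same genotype difference.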

How the data were processed

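Reads per gene were measured in 3 PP2Ac KO and 3 PP2Ac WT libraries of BMDM. The authors deposited whole-number counts per gene for mm10, without normalization. The submitters' notes name fastp 0.20.0, kallisto 0.46.1, STAR 2.7.1a, HTSeq 0.11.2, edgeR 3.34.0 and limma 3.48.3 with no role. Annotation release and strand setting are not given in the sources used here. Groups and replicate numbers came from the labels.

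The analysis used edgeR 4.0.16 under R 4.3.3 (filterByExpr at min.count 10 and min.total.count 15, TMM, glmQLFit and glmQLFTest for genotype, Benjamini-Hochberg over 13680 genes). CPM use TMM factors (0.910 to 0.937 in PP2Ac KO, 1.05 to 1.10 in PP2Ac WT), and errors are standard deviations of 3 libraries. Standard errors of log2 fold changes were derived as the absolute log2 fold change divided by the square root of edgeR's F statistic. A gene was called at an adjusted p under 0.05. The floor was 3 counts, 0.0604 to 0.0908 CPM, and covers counting error only. Both genotypes carry the numbers 1, 2 and 3 in the labels, which do not say that equal numbers share a day or batch. Deviations from the genotype means correlated between equally numbered libraries (0.289, 0.148 and 0.337), and differently numbered ones were not compared. These values cannot show a pairing, and a fit with the number as a block was made beside the main one. Tests were checked on simulated data. Coordinates, lengths and shared stretches came from GENCODE M21 (98.3% of 55453 symbols matched), promoters from RefSeq.

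The alternatives tried were upper-quartile and RLE scaling, no filter, at least 10 counts in every library, the block, each library left out, limma-voom (limma 3.58.1), DESeq2 1.42.0 and summed reads of paralogs. Chosen after seeing the data were the sum of H2-Q6 and H2-Q7, other gene lengths and the motif letters. The members and gene lists were chosen with earlier results of these data known. Named genes were all members, Ppp2ca, up to 6 called genes per list with the largest change, Nlrc5, Irf1, Tap1, Ciita, and the 5 genes nearest in profile to H2-K1 and to B2m. Calr, Canx, Pdia3, other factors and class I-like and class II genes that were not called were named after their values were seen. So were marker genes at 0 and the macrophage markers that rose. The value of 1 gene under this rule is not reported here.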

Additional observations from a re-analysis of the deposited data

How the results depend on the processing

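All 10 members were higher with an adjusted p under 0.05 under each of the 13 alternatives fitted for every member (scaling, filters, replicate block, each library left out, limma-voom and DESeq2). The highest adjusted p were 0.0199 for H2-T24, without PP2Ac WT replicate 2, and 0.0146 for H2-D1, without PP2Ac KO replicate 2, both from edgeR. Each member's smallest log2 fold change came without PP2Ac WT replicate 3, from 0.45 for H2-D1 to 2.72 for H2-Q6. With the replicate block, the members' log2 fold changes ran from 0.52 to 3.08 and the adjusted p from 6.84e-09 to 1.73e-05 (edgeR). The block raised the calls over all genes to 24.4% higher and 26.4% lower and changed no call of a member. Upper-quartile scaling moved the median over all genes tested, on the log2 scale, from -0.02 to -0.09 and left 4 members past the study's thresholds, with H2-M3 at 0.95. At this depth every member had at least 140.0 counts per library, so that counting error was small beside the spread between libraries. Upper-quartile scaling also added 1 transcription factor that fell, where the genes called lower over all genes tested went from 2604 to 3356. The class II genes called higher, 2 in the fit as reported, numbered 1 with upper-quartile scaling or limma-voom, 3 with DESeq2 and 4 without the filter on low counts. Over all genes tested, those called higher went from 2470 to 2095 with upper-quartile scaling, 2485 with limma-voom and 2597 with DESeq2. Without the filter, where more genes were tested, they numbered 2559. The cause of the changes in the class II count was not tested.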
